A study of Mus musculus with 12 samples.

Results

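The 10 genes described here are Scd1 and 9 other genes of hepatic de novo lipogenesis and its control, namely Fasn, Acaca, Acacb, Acly, Elovl6, Srebf1, Me1, Thrsp and Pnpla3. They were taken by symbol from the 36047 genes of the liver RNA sequencing, and 9 of them passed the filter on low counts that 14670 genes passed. The livers came from 12 adult male C57Bl/6J mice, 3 in each of 4 groups, after 7 days on the diets and a short period without food. RF.Ctrl mice ate a regular-fat control diet and HF.Ctrl mice a high-fat control diet. RF.SAAR and HF.SAAR mice ate the regular-fat and high-fat versions restricted in sulfur amino acids (SAAR), in which methionine was lowered and glutamic acid added in its place. None of the 4 diets contained cysteine, so the controls lacked it as well. The regular-fat and high-fat diets came from different suppliers, and an effect of fat cannot be told apart from other differences between the 2 formulations.

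De novo lipogenesis turns surplus carbohydrate into fatty acids. Citrate exported from mitochondria is split by ATP citrate lyase (Acly) into acetyl-CoA, which the acetyl-CoA carboxylases (Acaca and Acacb) convert to malonyl-CoA. Fatty acid synthase (Fasn) builds palmitate from these units with NADPH, part of which comes from malic enzyme (Me1). Elovl6 lengthens palmitate to stearate, and stearoyl-CoA desaturase 1 (Scd1) introduces the double bond that makes oleate and palmitoleate. SREBP-1, the product of Srebf1, is the insulin-responsive transcription factor that drives most of these genes in liver, and Thrsp and Pnpla3 are among the genes that respond to carbohydrate feeding. The malonyl-CoA made by Acacb at the mitochondrial surface is best known as an inhibitor of fatty acid uptake into mitochondria for oxidation.

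Each library held between 16203094 and 21230092 estimated counts. The TMM factors, which correct for a few abundant genes taking different shares of a library, were lower in every Ctrl mouse than in all but the lowest SAAR mouse, and dividing by library size alone would put the median SAAR difference of all genes at 0.16 (log2) at regular fat and 0.17 at high fat, against −0.0013 and −0.0014 with TMM. All 10 hepatocyte markers were detected, and their summed level lay between 78587 and 102016 normalized CPM (counts relative to the TMM-scaled library size). Summed CPM of 20 pancreatic acinar markers exceeded 3000, a limit chosen after seeing the data, in 3 mice. These were HF.Ctrl mouse 2 at 6025, HF.SAAR mouse 2 at 3597 and HF.SAAR mouse 3 at 17098. Below the limit, HF.Ctrl mouse 1 had 1659 and RF.Ctrl mouse 1 had 1359, while the remaining mice had 40.3 to 84.3. The 3 mice above the limit are all HF mice, so every comparison that includes HF mice was also run without those 3. That leaves HF.SAAR with 1 mouse that is then assumed to vary like the others, and it keeps the 2 mice at 1659 and 1359. In bulk tissue, fewer cells of a type and less RNA per cell cannot be told apart.

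Per unit of transcript length, Scd1 was the most abundant of the 10 mRNAs in RF.Ctrl liver and among the least abundant in HF.SAAR liver. On the length-scaled scale of TPM (transcript abundance relative to the whole library), the RF.Ctrl order was Scd1 at 231 ± 12.1 (SD, n = 3 for every value), Thrsp at 149 ± 77.6, Me1 at 109 ± 32.6, Acly at 47.6 ± 9.76 and Srebf1 at 47.4 ± 15.5. Fasn at 23.0 ± 2.94, Elovl6 at 16.0 ± 0.839, Acaca at 11.0 ± 1.85, Acacb at 3.63 ± 0.673 and Pnpla3 at 0.164 ± 0.0625 followed. In this group the mice of Scd1 and Thrsp, of Thrsp and Me1 and of Acly and Srebf1 overlapped, and all other neighbours in the order were separate. In HF.SAAR liver Me1 led with 101 ± 12.9 TPM, above all mice of Thrsp at 44.4 ± 28.9, and Scd1 stood eighth with 7.17 ± 2.29 TPM, overlapping Elovl6 at 7.51 ± 1.35 above it and Acacb at 4.22 ± 0.795 below it. Me1 also led in RF.SAAR, at 151 ± 20.6 TPM ahead of Scd1 at 58.6 ± 40.3, and in HF.Ctrl Scd1 was sixth with 14.8 ± 1.65 TPM.

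The reads behind these values are not equally specific. Of the 31-base stretches in the main transcript of each gene, 59.9% of those of Acaca also occur in Gm5182 and 35.3% of those of Me1 occur in other genes, chiefly Gm7049. Gm5182 was assigned at most 9.42 counts and Gm7049 at most 6.39 counts in any mouse, so little was placed there, but how kallisto divided shared reads is not visible in the files. Scd1 shares 8.43% of its stretches with other genes, among them Scd2, Scd3 and Scd4, Elovl6 shares 7.7% and Srebf1 shares 1.85%. Fasn, Acacb, Acly, Thrsp and Pnpla3 share none. Of the other delta-9 desaturases, Scd2 lay between 6.65 and 14.7 normalized CPM over the 12 mice, while Scd3 and Scd4 never exceeded 0.484 CPM and were not tested.

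Promoter sequences were available for 9 of the 10 genes in RefSeq's table on GRCm38.p6 (12 starts), and Scd1 was missing from it. The 250 bases before each start were searched on both strands for TCACNCCAC (a sterol regulatory element core, in 1.05% of all 32851 promoters), CACGTG (an E-box, 6.02%), TTGCATCA (part of an amino acid response element, 0.791%) and CCAAT (33.8%). No motif contains another. Of these motifs only CCAAT was found, in 7 of the 12 starts and 6 of the 9 genes. Fasn held 3 matches, whose first bases lie 90, 62 and 59 bases before the start, Thrsp held 2 at 79 and 52, and Acacb held 1 at 87. Both Thrsp matches lie in annotated exon sequence of Thrsp, which takes up 180 of the 250 bases. The transcript Thrsp-201 starts at 97417730, upstream of the RefSeq start at 97417550. Srebf1 had 1 match 30 bases before the start at 60210471, 1 match 166 bases before the start at 60222581, and none before the start at 60220627. These 4 windows are shown because they belong to genes or alternative starts that the results below return to, with CCAAT or its reverse complement ATTGG in capitals and the strand of the gene read 5′ to 3′. They are Fasn (chr11:120824548-120824797, minus strand), Srebf1 before the starts at 60210471 (chr11:60210472-60210721, minus strand) and 60220627 (chr11:60220628-60220877, minus strand), and Acacb (chr5:114165268-114165508, plus strand). The Acacb window is cut before the first annotated exon base within it. It lies inside the gene, after the start of the transcript Acacb-202 at 114146535.
Fasn: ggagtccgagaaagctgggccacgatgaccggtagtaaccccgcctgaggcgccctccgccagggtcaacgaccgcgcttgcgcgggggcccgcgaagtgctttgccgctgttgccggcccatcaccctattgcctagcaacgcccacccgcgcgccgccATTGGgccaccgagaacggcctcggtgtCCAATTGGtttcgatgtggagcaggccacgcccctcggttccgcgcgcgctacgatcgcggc
Srebf1, start at 60210471: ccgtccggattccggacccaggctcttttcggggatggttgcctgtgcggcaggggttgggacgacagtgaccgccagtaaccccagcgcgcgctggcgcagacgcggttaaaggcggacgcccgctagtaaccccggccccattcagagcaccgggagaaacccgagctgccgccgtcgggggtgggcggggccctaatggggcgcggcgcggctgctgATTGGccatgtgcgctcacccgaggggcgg
Srebf1, start at 60220627: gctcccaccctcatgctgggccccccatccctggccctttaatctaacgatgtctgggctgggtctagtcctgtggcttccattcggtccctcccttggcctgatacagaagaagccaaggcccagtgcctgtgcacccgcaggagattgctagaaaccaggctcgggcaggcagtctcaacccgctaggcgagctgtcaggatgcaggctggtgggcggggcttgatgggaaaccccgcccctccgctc
Acacb: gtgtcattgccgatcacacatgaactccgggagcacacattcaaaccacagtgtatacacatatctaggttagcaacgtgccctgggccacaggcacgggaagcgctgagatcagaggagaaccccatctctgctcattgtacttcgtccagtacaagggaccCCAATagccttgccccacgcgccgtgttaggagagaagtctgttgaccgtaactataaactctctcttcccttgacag

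Dietary SAAR lowered Scd1, Srebf1 and Elovl6 and raised Acacb when averaged over both fat levels. These 4 of the 9 tested genes were called at a Benjamini-Hochberg adjusted p under 0.05 by edgeR's quasi-likelihood test over all tested genes, which called 6.92% of genes in this averaged comparison. Scd1 fell by 1.83 on the log2 scale (SE 0.33, adjusted p = 0.0118), Srebf1 fell by 0.80 (SE 0.16, adjusted p = 0.0121), Elovl6 fell by 0.59 (SE 0.13, adjusted p = 0.0199) and Acacb rose by 0.48 (SE 0.12, adjusted p = 0.0234). At regular fat and at high fat, in that order, the differences were −2.30 and −1.36 for Scd1 and −0.84 and −0.76 for Srebf1. They were −0.87 and −0.30 for Elovl6 and −0.03 and 0.99 for Acacb, so the averaged rise of Acacb was not a rise at both fat levels. Thrsp, at −1.73 (SE 0.46), did not pass with an adjusted p of 0.0621. Fasn at −0.38, Acly at −0.28, Me1 at 0.33 and Acaca at 0.29 did not pass either, with adjusted p between 0.146 and 0.322. The median log2 difference of the 9 genes was −0.38, against −0.0039 for all tested genes.

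Within a fat level, with 3 mice per group, 1 gene was called in each comparison. At regular fat (RF.SAAR vs. RF.Ctrl) this was Elovl6, with 1.49% of all genes called, and at high fat (HF.SAAR vs. HF.Ctrl) Acacb, with 1.97% called. DESeq2 called 5 of the genes in RF.SAAR vs. RF.Ctrl (Scd1, Elovl6, Srebf1, Thrsp and Acly, all lower), where it called 4.8% of the genes it tested. It called 2 in HF.SAAR vs. HF.Ctrl (Srebf1 lower, Acacb higher; 4.65% of genes) and 5 in the averaged comparison (the 4 above and Thrsp; 9.03%). Groups of mice did not overlap in normalized CPM for 5 of the 9 genes in RF.SAAR vs. RF.Ctrl, all lower, and for 18.2% of all tested genes. In HF.SAAR vs. HF.Ctrl 2 were lower and 3 higher without overlap, and 17.9% of all tested genes had no overlap. Without the 3 mice rich in acinar RNA 0 of the 9 were called by edgeR in each of the 7 comparisons made here. Of all 15560 genes tested without them, 1.03% passed for SAAR at regular fat, 0.193% for SAAR at high fat, 2.44% in the averaged SAAR comparison and 0% in the other 4, so few calls were made among all genes as well.

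**Figure D1:**
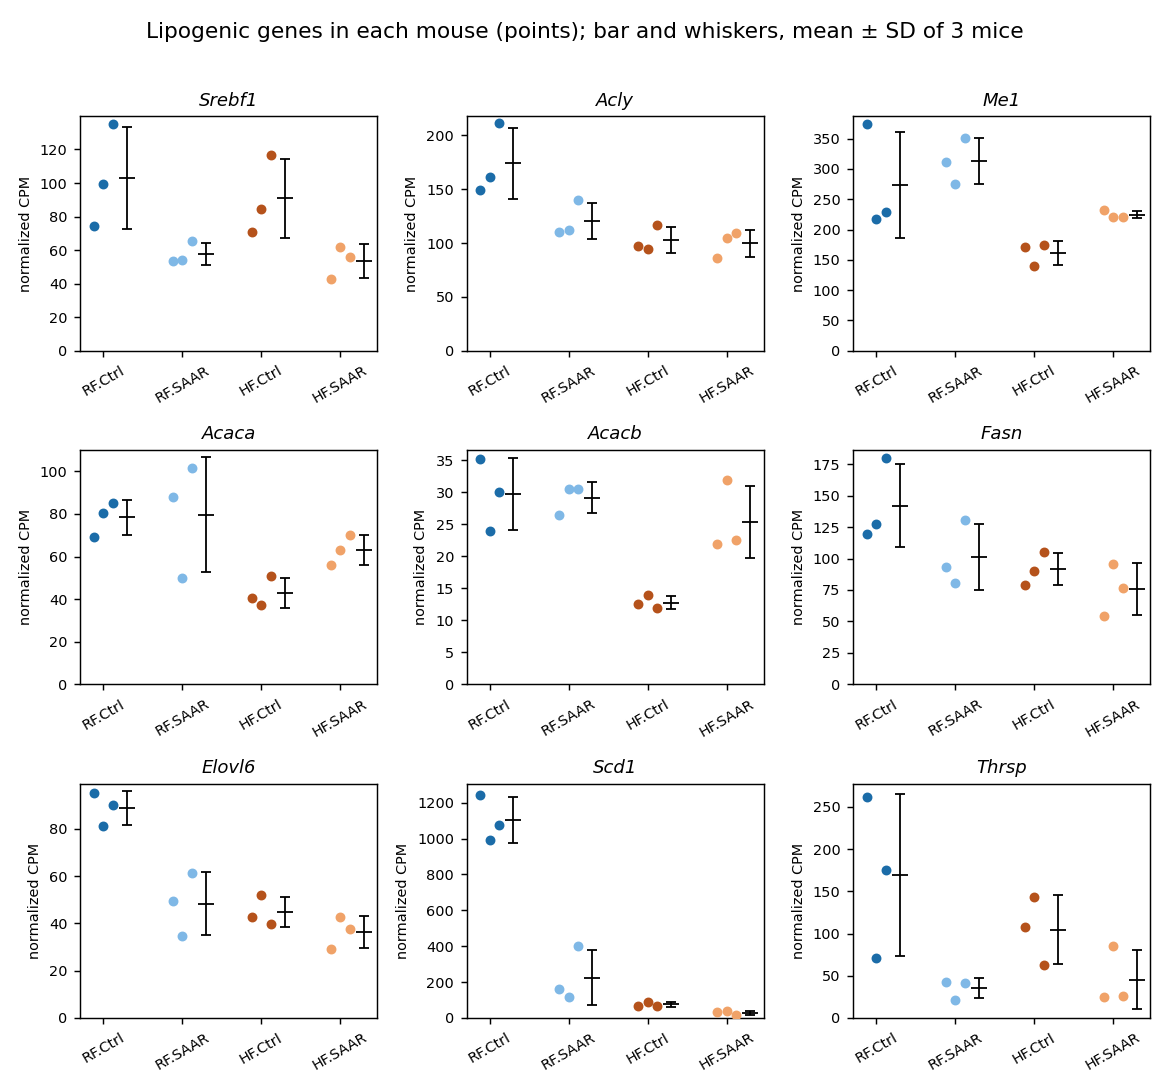
Normalized CPM (vertical axis, from 0) of the 9 tested genes in each mouse, by group; points are mice, and the bar with whiskers beside them is the mean ± SD of 3 mice. Scd1 lies between 992 and 1245 CPM in RF.Ctrl and between 17.6 and 401 CPM in the other groups, while Acacb is lowest in HF.Ctrl, at 11.9 to 13.9 CPM.

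Scd1 (ENSMUSG00000037071, chr19:44394455-44407879 of GRCm38, minus strand) had the largest estimated difference of the 9. The 3 RF.Ctrl mice had 1245, 992 and 1077 normalized CPM and the RF.SAAR mice 159, 114 and 401. The HF.Ctrl mice had 69.1, 90.6 and 69.2 CPM and the HF.SAAR mice 30.8, 41.1 and 17.6. At both fat levels every SAAR mouse was below every control mouse, and RF.SAAR mouse 3 was the highest of the restricted mice. The RF.Ctrl mean was 1105 ± 129 CPM and the RF.SAAR mean 225 ± 154 (SD), a log2 difference of −2.30 (SE 0.47, 4.91-fold lower) whose adjusted p of 0.0534 lay just above the threshold. In HF.SAAR vs. HF.Ctrl, with 29.8 ± 11.8 and 76.3 ± 12.4 CPM, the difference was −1.36 (SE 0.46, 2.56-fold lower, adjusted p = 0.234).

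With all 12 mice kept, the RF difference of Scd1 passed with library size alone (adjusted p = 0.0468), with at least 10 counts in every mouse (0.0441), without acinar genes (0.0495) and by DESeq2 (0.000186). Without RF.SAAR mouse 3 Scd1 was called, at −3.01 at regular fat (adjusted p = 0.0057), and, since all groups share 1 estimate of the spread, also at high fat with −1.36 (adjusted p = 0.038). Without HF.SAAR mouse 3 the RF difference of Scd1 was also called, with an adjusted p of 0.0498, and without any other single mouse its adjusted p lay between 0.063 and 0.154. RF.SAAR mouse 3 also had the highest sum of adipocyte markers once Car3, which liver expresses too, was set aside. Summed over the other 9 adipocyte markers it had 99.7 CPM, against 22.0 and 40.1 in the other RF.SAAR mice. The mice of the other groups had 27.5 to 56.8 CPM. With Car3 its sum was 2601 CPM, against 3134 and 3041 in the other RF.SAAR mice. That sum was 3036 to 3837 CPM in RF.Ctrl, 2489 to 3175 in HF.Ctrl and 1146 to 1548 in HF.SAAR. In RF.SAAR mouse 3 Fabp4 was 55.9, Cfd 10.3, Cidea 5.75, Adipoq 3.95 and Lep 0.0514 CPM. Adipoq was similar in HF.Ctrl mouse 2, at 3.78 CPM. Adipocytes also express Scd1 strongly, and the part of such cells in the Scd1 level of RF.SAAR mouse 3 was not tested.

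Elovl6 (ENSMUSG00000041220, chr3:129532355-129638495, plus strand), the elongase just before Scd1 in the pathway, had the same order of group means in normalized CPM at a smaller amplitude. RF.Ctrl mice had 95.2, 81.1 and 90.0 normalized CPM, RF.SAAR mice 49.4, 34.7 and 61.2, HF.Ctrl mice 42.7, 51.9 and 39.7, and HF.SAAR mice 29.1, 42.7 and 37.5. The RF groups were separate, the HF groups overlapped, and RF.SAAR and HF.Ctrl mice overlapped as well. In TPM the HF.Ctrl mean was 7.27 and the HF.SAAR mean 7.51. It fell by 0.87 on the log2 scale in RF.SAAR vs. RF.Ctrl (SE 0.19, 1.83-fold lower, adjusted p = 0.0404) and was at −0.30 in HF.SAAR vs. HF.Ctrl (SE 0.19, adjusted p = 0.598). The RF call was lost when any mouse of RF.Ctrl, RF.SAAR mouse 1 or 2, HF.Ctrl mouse 1 or HF.SAAR mouse 3 was left out, with adjusted p between 0.0625 and 0.137, and with library size alone (0.0582). In the averaged comparison Elovl6 was called without each of the 12 mice in turn.

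Srebf1 (ENSMUSG00000020538, chr11:60199089-60222581, minus strand), the transcription factor of the group, was lower in SAAR liver to a like degree at both fat levels. RF.Ctrl mice had 74.4, 99.4 and 135 normalized CPM and RF.SAAR mice 53.7, 54.2 and 65.2. HF.Ctrl mice had 70.9, 84.8 and 117 CPM and HF.SAAR mice 42.6, 62.1 and 56.1. Control mice did not overlap restricted mice at either fat level. The log2 difference was −0.84 in RF (SE 0.23, 1.78-fold lower, adjusted p = 0.109) and −0.76 in HF (SE 0.23, 1.70-fold lower, adjusted p = 0.139), and their difference was 0.07 (SE 0.32, adjusted p = 0.999). The averaged call held without each of the 12 mice in turn.

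The 2 carboxylases were not lower in SAAR liver. Acacb (ENSMUSG00000042010, chr5:114146535-114250761, plus strand) had 35.2, 24.0 and 30.1 normalized CPM in RF.Ctrl mice, 26.4, 30.5 and 30.5 in RF.SAAR, 12.5, 13.9 and 11.9 in HF.Ctrl, and 21.9, 31.8 and 22.5 in HF.SAAR. The HF.Ctrl mice alone were low, below every mouse of the other 3 groups. In HF.SAAR vs. HF.Ctrl it rose by 0.99 (SE 0.17, 1.99-fold, adjusted p = 0.0079), and this call held without each of the 12 mice in turn, whereas without the 3 acinar-rich mice the value was 0.83 (adjusted p = 0.232). At regular fat the difference was −0.03 (SE 0.16, adjusted p = 0.972), turning to 0.14 with library size alone. Its averaged SAAR call was lost without RF.Ctrl mouse 2 or 3, RF.SAAR mouse 3, or HF.Ctrl mouse 1 or 3, with adjusted p between 0.0516 and 0.0627, and with effective length offsets (0.067).

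Acaca (ENSMUSG00000020532, chr11:84129672-84401651, plus strand), the cytosolic carboxylase of fatty acid synthesis, was called in none of the 7 comparisons by edgeR with all 12 mice. RF.Ctrl mice had 69.3, 80.7 and 85.3 normalized CPM, RF.SAAR mice 87.8, 49.8 and 102, HF.Ctrl mice 40.6, 37.4 and 50.9, and HF.SAAR mice 56.1, 62.9 and 70.2. The HF.SAAR mice lay above the HF.Ctrl mice, at 0.55 on the log2 scale (SE 0.22, 1.47-fold higher, adjusted p = 0.289), while the RF.SAAR mice spread around the RF.Ctrl mice, at 0.02 (SE 0.21, adjusted p = 0.982), or −0.18 without RF.SAAR mouse 3. Without RF.SAAR mouse 2, the lowest of its group, the averaged SAAR difference of 0.29 became 0.41 and was called (adjusted p = 0.0304).

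Of the genes that feed the synthase, Acly (ENSMUSG00000020917, chr11:100476353-100528000, minus strand) and Me1 (ENSMUSG00000032418, chr9:86581371-86695953, minus strand) pointed in opposite directions under SAAR, and neither was called. Acly had 149.5, 161 and 211 normalized CPM in RF.Ctrl mice, 110, 112 and 140.0 in RF.SAAR, 97.3, 94.1 and 116 in HF.Ctrl, and 85.8, 104 and 109 in HF.SAAR. It did not overlap between the RF groups (−0.53, SE 0.15, 1.44-fold lower, adjusted p = 0.114), and in HF it was at −0.04 (SE 0.15, adjusted p = 0.960), or 0.12 with library size alone. Me1 had 375, 218 and 229 CPM in RF.Ctrl mice, 312, 275 and 351 in RF.SAAR, 171, 139 and 174 in HF.Ctrl, and 232, 221 and 221 in HF.SAAR. Its HF groups were separate (0.48, SE 0.18, 1.39-fold higher, adjusted p = 0.260) and its RF groups were not (0.19, SE 0.18, adjusted p = 0.739), with RF.Ctrl mouse 1 above all other mice. Without that mouse the averaged SAAR difference of Me1 was 0.48 and was called (adjusted p = 0.0079), against 0.33 with it.

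Fasn (ENSMUSG00000025153, chr11:120805846-120824547, minus strand), the synthase itself, overlapped between control and restricted mice at both fat levels. Its normalized CPM was 119, 127 and 180 in RF.Ctrl, 93.0, 80.2 and 130 in RF.SAAR, 79.2, 90.3 and 105 in HF.Ctrl, and 54.3, 95.7 and 76.5 in HF.SAAR. The log2 difference was −0.49 in RF (SE 0.23, adjusted p = 0.397) and −0.28 in HF (SE 0.23, adjusted p = 0.715). The SAAR difference of Scd1 was thus estimated at several times that of Fasn in log2 units at both fat levels, a difference between genes that was not tested.

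Thrsp (ENSMUSG00000035686, chr7:97412938-97417730, minus strand), which encodes the nuclear protein Spot 14, varied widely between mice of a group. It had 262, 70.6 and 175 normalized CPM in RF.Ctrl mice, 42.6, 21.6 and 41.7 in RF.SAAR, 108, 144 and 62.3 in HF.Ctrl, and 25.3, 85.6 and 25.6 in HF.SAAR. The RF groups were separate and the HF groups overlapped through HF.SAAR mouse 2. The difference was −2.26 in RF (SE 0.66, 4.79-fold lower, adjusted p = 0.163) and −1.20 in HF (SE 0.64, 2.30-fold lower, adjusted p = 0.512). Without HF.SAAR mouse 2 the averaged difference was −2.15 and was called (adjusted p = 0.0217), as it was without RF.Ctrl mouse 2 (−1.91, adjusted p = 0.0421). Pnpla3 (ENSMUSG00000041653, chr15:84167837-84187236, plus strand), a lipid-droplet acyl hydrolase, was close to undetected. Its estimated counts were 2, 4 and 4 in RF.Ctrl, 7.03, 5 and 8 in RF.SAAR, 2, 6.52 and 0 in HF.Ctrl, and 8.44, 7 and 3 in HF.SAAR, below the filter on low counts. Fitted without that filter, its averaged SAAR difference was 0.82 (SE 0.61, adjusted p = 0.656), and edgeR called it in none of the 7 comparisons. DESeq2 did not call it either, and gave no adjusted p for it in 6 of the 7.

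**Figure D2:**
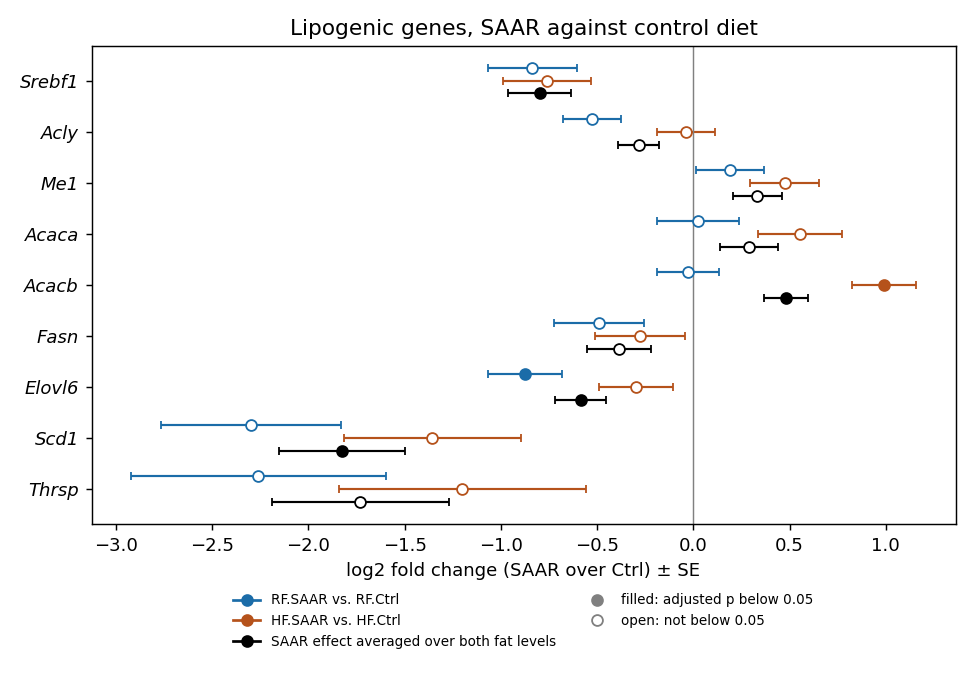
Log2 fold change of SAAR over control diet (horizontal axis, ± SE) for the 9 tested genes, in RF mice, HF mice and averaged over both; filled points have an adjusted p below 0.05. Scd1 and Thrsp lie farthest to the left in each comparison, and Acacb is the only gene with a filled point above 0, at 0.99 in HF mice and 0.48 on average.

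Scd1 was lower on the high-fat diet over control and restricted mice combined, where it fell by 3.38 on the log2 scale (SE 0.35, 10.4-fold lower, adjusted p = 0.0203). It was the only one of the 9 genes called, and 0.0409% of all genes were called in this averaged comparison. The call was lost without RF.Ctrl mouse 1 or 3, any HF.Ctrl mouse or HF.SAAR mouse 1, with adjusted p between 0.0546 and 0.103, and without the 3 acinar-rich mice (−3.43, adjusted p = 0.452). All 9 genes were estimated lower in HF mice, with a median of −0.60 against 0.0033 for all tested genes. Acacb followed Scd1 at −0.71 (SE 0.12, adjusted p = 0.0544), then Elovl6 at −0.70 (SE 0.13, adjusted p = 0.130), Me1 at −0.62 (SE 0.13), Acaca at −0.60 (SE 0.15), Fasn at −0.53 (SE 0.17) and Acly at −0.52 (SE 0.11). Leaving out a single mouse added calls, with Acaca at −0.73 and Elovl6 at −0.79 without RF.SAAR mouse 2 (adjusted p = 0.0284 for both), and Acacb at −0.78 without RF.Ctrl mouse 2 (0.0343) or −0.81 without HF.SAAR mouse 2 (0.024). DESeq2 called 6 of the 9 genes, and 0.762% of the genes it tested. Thrsp at −0.16 and Srebf1 at −0.14 were nearest to no difference, and Thrsp turned to 0.07 without RF.Ctrl mouse 1.

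Between the control diets, edgeR called 0 of the 9 genes and 0% of all tested genes in HF.Ctrl vs. RF.Ctrl, although 7 of the 9 had an unadjusted p under 0.05, as did 527 of all 14670 genes. DESeq2 called 6 of the genes lower (Scd1, Acacb, Acly, Elovl6, Me1 and Acaca) and 0.212% of the genes it tested. For 7 of the 9 genes, all but Srebf1 and Thrsp, every HF.Ctrl mouse was below every RF.Ctrl mouse, and 8.53% of all tested genes had no overlap in either direction. Scd1 was 14.5-fold lower (log2 −3.86, SE 0.50, adjusted p = 0.151) and Acacb 2.33-fold lower (−1.22, SE 0.17, adjusted p = 0.0716). Elovl6 was at −0.99, Acaca at −0.87, Acly and Me1 both at −0.76, Fasn at −0.63, Thrsp at −0.69 and Srebf1 at −0.18, with adjusted p from 0.268 to 0.9996. In edgeR, Scd1 was called here without RF.SAAR mouse 3 (adjusted p = 0.0022), and Acacb without RF.Ctrl mouse 2 (0.0371), HF.SAAR mouse 1 (0.04) or HF.SAAR mouse 2 (0.0143).

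Between the restricted diets the differences were estimated smaller for most of the genes than between the control diets. The test of that contrast, the interaction given below, called 0 of the 9. Of the 9 genes, edgeR called 0 when the SAAR groups were compared, against 0.0477% of all genes, 2 of the 9 had an unadjusted p under 0.05, and DESeq2 called Scd1 alone among them, with 0.564% of its tested genes. Scd1 was 7.54-fold lower (−2.91, SE 0.48, adjusted p = 0.163), Me1 was at −0.48 (SE 0.18, adjusted p = 0.805) and Acly at −0.27 (SE 0.15). In these 3 genes every HF.SAAR mouse was below every RF.SAAR mouse, and 10.1% of all tested genes had no overlap. Elovl6 was at −0.41, Fasn at −0.42, Acaca at −0.34, Acacb at −0.20 and Srebf1 at −0.11, while Thrsp was at 0.37, or at −0.48 without HF.SAAR mouse 2.

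**Figure D3:**
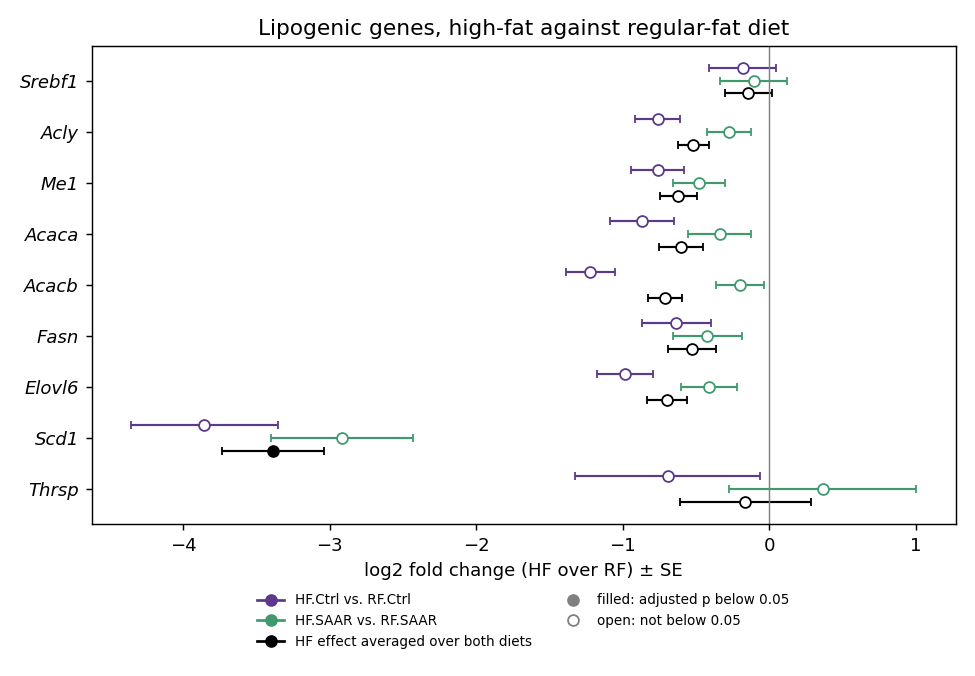
Log2 fold change of high-fat over regular-fat diet (horizontal axis, ± SE) for the 9 tested genes, in control mice, restricted mice and averaged over both; filled points have an adjusted p below 0.05. Scd1 lies at −3.86, −2.91 and −3.38, and only its averaged point is filled.

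Whether SAAR acted differently at the 2 fat levels was tested with the interaction of diet and fat. edgeR called 0 of the 9 genes and 0.00682% of all genes, and DESeq2 called 0 of them and 0.106% of its tested genes. An unadjusted p under 0.05 was reached by 2 of the 9, Acacb and Acly. For Acacb the SAAR difference was 1.02 higher on the log2 scale in HF than in RF mice (SE 0.23, adjusted p = 0.740 by edgeR). For Acly it was 0.49 higher (SE 0.21), for Scd1 0.94 (SE 0.64), for Thrsp 1.06 (SE 0.90), for Elovl6 0.58 (SE 0.27), for Acaca 0.53 (SE 0.30), for Me1 0.28 (SE 0.25) and for Fasn 0.21 (SE 0.33). All 9 estimates were above 0, but those of Fasn, Srebf1 and Me1 fell below 0 in at least 1 of the alternatives.

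Scd1, Elovl6, Me1, Acaca and Thrsp were read mostly from a single main transcript, so that their gene and transcript values are close. Scd1-201 held nearly all counts of Scd1, Elovl6-201 held 95.3% of those of Elovl6, Me1-201 90.5%, Acaca-201 88.1% and Thrsp-201 85.6%. The rest of Thrsp was a transcript with a retained intron. Fasn was divided mainly between Fasn-205 (74.2%) and Fasn-201 (21.0%), and Acly between Acly-201 (67.2%) and Acly-203 (23.2%). For Acly-201 and Acly-203 the SAAR difference was −0.38 and −0.98 in RF, and −0.12 and 0.35 in HF. Among 35707 transcripts tested, none of the members' transcripts was called in RF.SAAR vs. RF.Ctrl (0.148% of transcripts called) or in HF.SAAR vs. HF.Ctrl (0.356%). In the averaged SAAR comparison (1.49%), Scd1-201 fell by 1.83 and Srebf1-201 by 0.72, and in the averaged HF comparison (0.0056%) Scd1-201 fell by 3.39.

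Acacb and Srebf1 were divided among several starts. Of the Acacb counts, Acacb-202, which starts at 114146535, held 61.7%, the retained-intron transcript Acacb-204 26.5% and Acacb-201, which starts beside the promoter window shown above at 114165518, 11.1%. Acacb-201 had 161, 9.74 and 51.7 estimated counts in RF.Ctrl, 174 in RF.SAAR mouse 3 and 203 in HF.SAAR mouse 3, and at most 0.093 in all other mice, including the 3 of HF.Ctrl. In both SAAR groups counts above 0.093 were thus assigned to it in a single mouse of 3. How kallisto divided reads shared between transcripts of a gene is not visible in the estimated counts. Acacb-202 had 224, 327 and 334 counts in RF.Ctrl, 124, 125 and 137 in HF.Ctrl, 455, 284 and 363 in RF.SAAR and 382, 420 and 138 in HF.SAAR. Its estimate was thus low in every HF.Ctrl mouse and also in HF.SAAR mouse 3. Summed over transcripts, Acacb had 408, 616 and 477 counts in the HF.SAAR mice. Srebf1-201, starting at 60220604, held 43.4% of the Srebf1 counts and Srebf1-207, starting at 60210465, 39.6%. Srebf1-207, the transcript that begins just after the printed window with a CCAAT match, had 473, 753 and 1097 counts in RF.Ctrl, 364, 420 and 480 in RF.SAAR, 429, 406 and 856 in HF.Ctrl and 287, 446 and 491 in HF.SAAR.

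**Figure D4:**
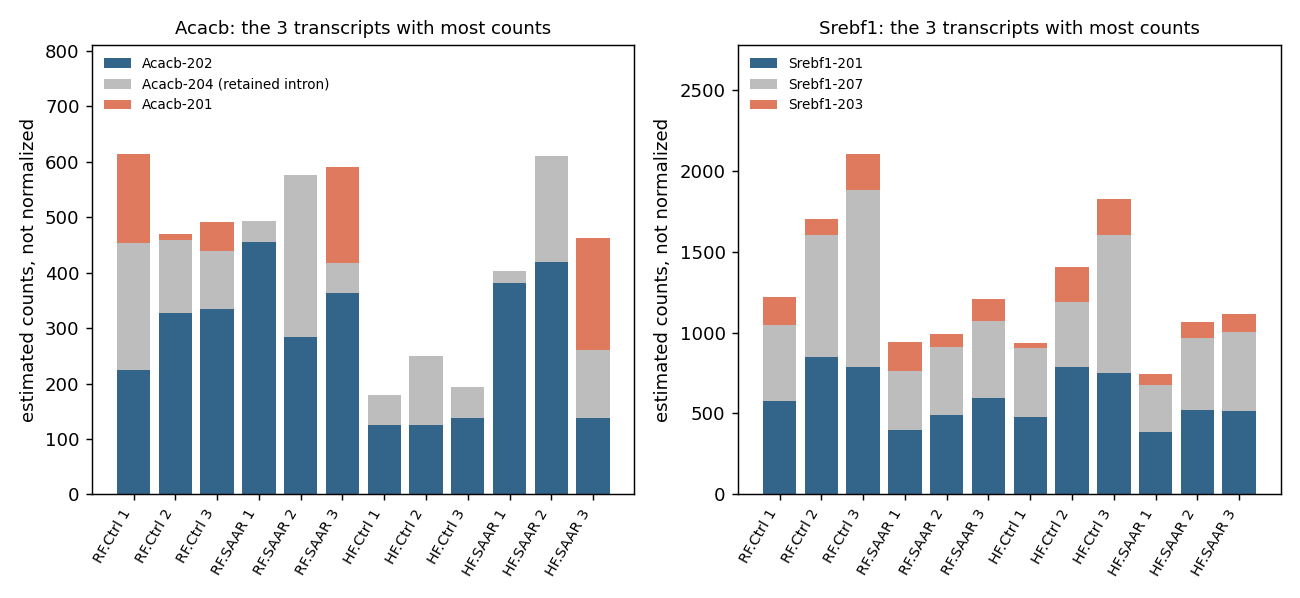
Estimated counts (vertical axis, from 0, not normalized between mice) of the 3 transcripts of Acacb and of Srebf1 with most counts, stacked for each mouse. Acacb-202 is between 124 and 137 in the HF.Ctrl mice, and Acacb-201 reaches 161, 174 and 203 in single mice of 3 groups.

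Mice of the same group differed from each other in several of these genes at once. RF.SAAR mouse 3 had the highest value of its group for 7 of the 9 tested genes, HF.SAAR mouse 2 (rich in acinar RNA) for 6, and HF.SAAR mouse 1 the lowest for 7. These mice had the most such ranks among the 12, and their ranks over all tested genes were not examined. After each group mean was subtracted from log2 CPM, Srebf1 and Acly correlated over the 12 mice with Pearson's r = 0.895, Fasn and Acly with 0.881 and Fasn and Srebf1 with 0.857. For Thrsp and Acacb r was 0.837, for Scd1 and Elovl6 0.699, and for Scd1 and Srebf1 0.132. Each value describes 12 mice in which both genes come from the same library and share its depth and scaling.

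Over all 12 mice, the level of Elovl6 was the most like that of Scd1 among the 14669 other tested genes, with Pearson's r = 0.922 on log2 CPM. The next 4 were Kcp (0.897), Chrna4 (0.895), Cyb5r3 (0.892) and Gm2a (0.890). Cyb5r3, the cytochrome b5 reductase that passes electrons toward the desaturases, averaged 367 normalized CPM in RF.Ctrl, 278 in RF.SAAR, 281 in HF.Ctrl and 236 in HF.SAAR. Chrna4, a nicotinic receptor subunit, averaged 3.58, 0.751, 0.433 and 0.472 CPM in the same order. Acly ranked 12th (r = 0.854) and Fasn 21st (0.821), whereas Thrsp (0.562), Srebf1 (0.546), Acaca (0.505), Me1 (0.452) and Acacb (0.437) ranked between 466th and 1190th. These r describe 12 mice in 4 diet groups and are given without a test.

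Other genes of the pathway were read from lists. Among all 14670 genes edgeR called 1.49% for SAAR at regular fat, 1.97% at high fat and 6.92% on average. An unadjusted p under 0.05 was reached by 1988, 1825 and 2974 of these genes in the same order. Of 17 lipogenic regulators other than Srebf1, such as Mlxipl, Nr1h3 and Insig1, edgeR and DESeq2 called 0 in each of the 7 comparisons, with 0 or 1 at an unadjusted p under 0.05, and the median averaged SAAR difference was −0.04. Of 16 genes of substrate and NADPH supply, Acss2, which makes acetyl-CoA from acetate, fell by 0.71 in RF (SE 0.12, adjusted p = 0.0118) and by 0.55 in HF (SE 0.12, adjusted p = 0.0359). The glycolytic isomerase Gpi1 rose by 0.62 in HF (SE 0.09, adjusted p = 0.00304). In the averaged SAAR comparison Acss2 and the liver pyruvate kinase Pklr (−0.92, adjusted p = 0.0161) were lower and Gpi1 higher, 3 of 16 in all, with a median of −0.04. Of 8 genes that control malonyl-CoA and the carboxylases, edgeR and DESeq2 called 0 in every comparison, with at most 2 at an unadjusted p under 0.05 and an averaged SAAR median of 0.07.

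The genes of polyunsaturated fatty acid synthesis that were called moved opposite to Scd1. Of 13 tested among 15 other desaturases and elongases, the delta-5 desaturase Fads1 rose by 0.71 in HF (SE 0.13, adjusted p = 0.0141), and on average Fads1 rose by 0.45 (adjusted p = 0.0107) and the delta-6 desaturase Fads2 by 0.50 (adjusted p = 0.0461). The list's averaged median was 0.08. Of 12 tested among 13 genes of glycerolipid assembly, the glycerol-3-phosphate acyltransferase Gpat3 rose by 1.70 in RF (SE 0.34, adjusted p = 0.029) and by 1.43 on average (adjusted p = 0.00356), and Agpat3 rose by 0.28 on average (adjusted p = 0.0373), with a median of −0.00088. Of 21 genes of cholesterol synthesis, which the related factor SREBP-2 drives, 17 averaged estimates were below 0 (median −0.15), and edgeR called 0 of the 21 lower, with 4 at an unadjusted p under 0.05 in either direction.

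Of 20 genes of fatty acid oxidation, the peroxisomal enzyme Ehhadh rose by 0.91 in RF (SE 0.17, adjusted p = 0.0185). In the averaged SAAR comparison Pdk4, which restrains entry of pyruvate into the citric acid cycle, rose by 1.97 (adjusted p = 0.0226), Ehhadh by 0.48 (0.0302) and Hadhb by 0.29 (0.0312), and Acaa2 fell by 0.32 (0.0143), with a median of 0.09. In HF.SAAR vs. HF.Ctrl edgeR called 0 of the 20 and DESeq2 4, with 4 at an unadjusted p under 0.05. In the 2 comparisons of fat level, the averaged fat comparison and the interaction, edgeR called 0 genes of all 7 lists. In HF.Ctrl vs. RF.Ctrl 19 of the 20 oxidation genes were estimated higher (median 0.19) and 15 of the 16 supply genes lower (median −0.12). For the oxidation and supply lists, 4 and 5 genes had an unadjusted p under 0.05, and DESeq2 called 0 and 3. Among all genes 527 of 14670 had such a p, and DESeq2 called 0.212% of those it tested.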

How the data were processed

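Liver RNA of 12 mice was sequenced from poly(A)-selected libraries. Per the labels and the study's methods, the authors trimmed reads with cutadapt, checked them with FastQC and quantified transcripts with kallisto; they deposited estimated counts, TPM and an effective length per transcript, with no molecular identifiers. The labels hold diet and fat level under each other's names, and groups were read from both values. Replicate numbers follow accession order and pair nothing. No 2 mice had identical counts.

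Of 118489 transcripts, 116816 were matched by identifier to GENCODE's mouse annotation on GRCm38 and summed to 36047 genes, and 1673 unmatched ones (0.704 to 1.8% of counts) were left out. Rounded sums were filtered (filterByExpr, minimum count 10), scaled by TMM and fitted with edgeR 4.0.16 quasi-likelihood (R 4.3.3, limma 3.58.1) over all 12 mice; p-values were adjusted by Benjamini-Hochberg over 14670 genes. The threshold was 0.05. The common biological coefficient of variation was 0.215. Transcripts were fitted likewise. P-values rest on the spread between mice within groups (3 mice each), pooled over all groups. Each gene's spread also borrows from that of the other genes. The script was tested on simulated data. TPM was summed per gene for levels between genes only.

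Alternatives were DESeq2 1.42.0, other scalings and filters, effective length offsets, the most abundant transcript, only the groups compared, no acinar genes and each mouse left out. All 10 members were named, with called genes of 7 pathway lists (up to 4 per list and direction) and the 5 genes most like Scd1. Members and lists were chosen with earlier results of these data known. A result of the cholesterol synthesis list is not reported here. Promoters are from RefSeq on GRCm38.p6.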

Additional observations from a re-analysis of the deposited data

How the results depend on the processing

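No paired analysis was possible because the labels give no replicate numbers. Of 1359 log2 differences recomputed for single genes, 1256 kept their direction and side of the threshold, 45 newly passed, 32 no longer passed and 26 changed sign. Most of the 1359 belong to a gene and comparison not called in the main fit, and these could not lose a call. The 32 all come from the smaller number that started as called. Their share of 1359 therefore understates how often a call was lost. In RF.SAAR vs. RF.Ctrl, where 1 gene was called, 2 were called with at least 10 counts in every mouse, with effective length offsets or without acinar genes, 5 by DESeq2, 0 with only the groups compared, with the most abundant transcript or without the 3 acinar-rich mice (an alternative chosen after seeing the data), and 0 to 2 when each mouse was left out. In HF.SAAR vs. HF.Ctrl, where 1 was called, the count was 2 by DESeq2, 0 without the 3 mice, 0 with the most abundant transcript and 1 to 2 with each mouse left out. In HF.Ctrl vs. RF.Ctrl, where 0 were called, it was 1 with library size alone, without a filter or with only the groups compared. DESeq2 gave 6, and leaving out each mouse gave 0 to 1. Over all genes 0 were called here in the main fit, 1 with library size alone, 3 without a filter and 2 with only the groups compared. For HF.SAAR vs. RF.SAAR DESeq2 gave 1 against 0. For SAAR averaged over fat levels the count of 4 became 0 without the 3 mice, 2 with the most abundant transcript, 3 with effective length offsets (Acacb lost), 6 with library size alone (Me1 and Thrsp gained) and 3 to 5 with each mouse left out. For HF averaged over diets the count of 1 became 2 with library size alone, without a filter or with at least 10 counts, 6 by DESeq2, 0 without the 3 mice and 0 to 3 with each mouse left out. Over all 14670 genes, RF.SAAR vs. RF.Ctrl had 218 calls in the main fit and 163 with effective length offsets. It had 244 of 12368 with at least 10 counts and 220 of 14650 without acinar genes. The averaged SAAR comparison had 1015 calls, against 2449 with library size alone and 750 with effective length offsets. The averaged HF comparison had 6, against 8 with library size alone, 8 of 12368 with at least 10 counts and 18 of 23935 without a filter. Differences that changed sign were all small or uncertain. With library size alone Acacb was at 0.14 in RF.SAAR vs. RF.Ctrl and Acly at 0.12 in HF.SAAR vs. HF.Ctrl. With effective length offsets Srebf1 was at 0.23 and Acacb at 0.07 in HF.SAAR vs. RF.SAAR, and the interaction of Fasn at −0.18. Without the 3 mice Thrsp was at −0.50 in HF.SAAR vs. RF.SAAR, and the interactions of Srebf1 and Fasn at −0.33 and −0.30. With the most abundant transcript Acacb was at 0.22 in RF.SAAR vs. RF.Ctrl and the interaction of Srebf1 at −0.10. With each mouse left out, Acaca ranged from −0.18 to 0.27 and Acacb from −0.16 to 0.11 in RF.SAAR vs. RF.Ctrl, Acly from −0.11 to 0.06 in HF.SAAR vs. HF.Ctrl, and Srebf1 from −0.40 to 0.06 in HF.Ctrl vs. RF.Ctrl. In HF.SAAR vs. RF.SAAR Srebf1 ranged from −0.23 to 0.03 and Thrsp from −0.48 to 0.66, and averaged over diets the HF difference of Thrsp from −0.59 to 0.07. The interaction ranged from −0.01 to 0.43 for Fasn, −0.17 to 0.30 for Srebf1 and −0.01 to 0.42 for Me1. Leaving out the 3 mice also means fewer samples, and otherwise the cause was not tested. With 0 to 8.44 estimated counts per mouse, Pnpla3 did not pass the filter on low counts.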
